A study of Mus musculus with 4 samples.

Results

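The genes described are Rag1, Rag2, Dntt and Ptcra, which build and pair the first antigen receptor chains of a developing T cell. They were taken by symbol from the deposited gene lists, where each symbol had 1 row, so that 4 of 31053 genes were followed. Their UMIs (unique molecular identifiers, each marking 1 captured transcript) were read in 8797 cells of experiment 1 and 8335 cells of experiment 2.

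The cells were mouse bone marrow progenitors grown on OP9-Dll1, a stromal line that displays the Notch ligand Dll1, with IL-7 and Flt3-ligand at 10 ng/ml each. Runx1 overexpression cultures came from B6.Bcl2 transgenic mice 8 to 10 weeks old and received MSCV-Runx1-mCherry or, as control, MSCV-empty-mCherry on day 2, with harvest after 4 or 6 days in all. Double knockout cultures came from B6.Cas9;Bcl2 transgenic mice and received E42-gRunx1-hNGFR with E42-gRunx3-mTurquoise, using 3 guide pairs for each gene, or E42-gControl vectors with luciferase guides, on day 2, with harvest after 5 or 8 days in all. Every culture therefore carried the Bcl2 survival transgene, and every sort took live lineage-negative CD45+ cells bearing the vector's reporter. The study used these arms to ask how early T-cell development changes with added Runx1 or without Runx1 and Runx3. Per the labels, experiment 1 spanned 4 to 5 days of culture and experiment 2 spanned 4 to 8 days. Each culture was marked with 1 of 8 hashtags, antibody-borne barcodes named tags 1 to 8 here in the order of the deposited columns. The columns name no condition, so a tag is a culture of unknown vector and day. The 8 tags of an experiment are given as single values with their range and median, without any test between them. The tag numbers do not pair cultures across the experiments.

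Rag1 and Rag2 encode the recombinase that cuts DNA beside the V, D and J segments of antigen receptor genes, and neither protein cuts without the other. Dntt encodes terminal deoxynucleotidyl transferase (TdT), which adds untemplated bases to the cut ends before they are joined. Ptcra encodes pre-T alpha, the surrogate chain that pairs with a newly made T-cell receptor beta chain, and with the CD3 chains forms the pre-T-cell receptor. In the thymus these genes come on in steps as progenitors gain CD25 (encoded by Il2ra) and then commit to the T lineage with Bcl11b. Rag1, Rag2 and Dntt also serve B-cell precursors.

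The start regions of the members are shown because Runx factors, Notch (through Rbpj) and E proteins are the regulators for which binding letters can be searched. Each line holds the 250 bases before the annotated start, 5′ to 3′ on the gene's strand, from RefSeq on GRCm38.p6. Capitals mark matches on either strand to the Runx letters TGTGGT or TGCGGT and to the Rbpj letters TGGGAA.
Rag1: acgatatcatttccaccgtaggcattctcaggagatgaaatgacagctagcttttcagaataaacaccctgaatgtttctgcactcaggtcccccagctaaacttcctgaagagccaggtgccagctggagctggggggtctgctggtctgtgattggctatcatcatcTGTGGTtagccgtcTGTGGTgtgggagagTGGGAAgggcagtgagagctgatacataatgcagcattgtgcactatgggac
Rag2: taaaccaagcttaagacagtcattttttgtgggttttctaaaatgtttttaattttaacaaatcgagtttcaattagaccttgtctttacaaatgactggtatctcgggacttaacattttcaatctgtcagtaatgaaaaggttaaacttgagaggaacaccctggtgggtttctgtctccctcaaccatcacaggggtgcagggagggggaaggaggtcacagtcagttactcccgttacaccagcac
Dntt: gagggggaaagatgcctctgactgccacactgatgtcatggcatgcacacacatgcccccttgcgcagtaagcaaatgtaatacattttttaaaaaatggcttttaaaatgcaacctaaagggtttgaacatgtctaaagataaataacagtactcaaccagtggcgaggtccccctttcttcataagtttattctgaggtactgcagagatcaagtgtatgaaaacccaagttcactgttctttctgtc
Ptcra: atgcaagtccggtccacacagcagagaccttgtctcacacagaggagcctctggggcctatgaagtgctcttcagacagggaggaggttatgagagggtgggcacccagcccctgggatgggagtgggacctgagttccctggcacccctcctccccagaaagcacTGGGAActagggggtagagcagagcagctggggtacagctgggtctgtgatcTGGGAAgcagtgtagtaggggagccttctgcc

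The Rag1 stretch (chr2:101649533-101649782, minus strand) held 2 Runx matches, which begin 81 and 67 bases before the start, and 1 Rbpj match at 52 bases. The Ptcra stretch (chr17:46763713-46763962, minus strand) held 2 Rbpj matches, at 84 and 32 bases, and no Runx match. The Rag2 stretch (chr2:101624462-101624711, plus strand) and the Dntt stretch (chr19:41029025-41029274, plus strand) held neither set of letters. E-box letters, CANNTG, occurred 3 times in Rag1, 1 time in Rag2, 3 times in Dntt and 2 times in Ptcra. The Rag1 E-box CATCTG at 85 bases overlaps the Runx match at 81 bases. Among 32851 RefSeq promoter entries of the same length, 18.6% held a Runx match and 2.01% held 2 or more. An Rbpj match was in 21.6% and 2 or more were in 2.77%, while 66.2% held an E-box. These are matches of letters in 1 window per gene and no binding was measured.

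Rag1 (ENSMUSG00000061311) spans chr2:101638252-101649532 on the minus strand and Rag2 (ENSMUSG00000032864) spans chr2:101624712-101632528 on the plus strand. The pair point towards each other with 5724 bases between their annotated ends. Dntt (ENSMUSG00000025014) lies at chr19:41029275-41059525 and Ptcra (ENSMUSG00000036858) at chr17:46755663-46763712.

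The tagged cells held 221139979 UMIs in experiment 1 and 232564152 in experiment 2, with medians of 24753 and 26338 UMIs per cell. A tag had 691 to 1291 cells in experiment 1 and 855 to 1312 in experiment 2, and 28 barcodes carried a tag in both files. The labels call the cells high in cKit. After each cell was thinned to 5000 UMIs, 28.2% of cells in experiment 1 and 16.7% in experiment 2 had a Kit UMI, and the remainder had none at that depth. Granulocyte or monocyte-like, mast or basophil-like, innate lymphoid-like and stromal-like clusters were present in both experiments. Levels below are CPM, the UMIs of a gene per 1000000 UMIs of the tag or cell group. All intervals are 95% and cover counting error only, not differences between cultures.

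All 4 members were counted in both experiments, Dntt far more often than the others. In experiment 1, 1575 cells (17.9%) had a Dntt UMI, 863 (9.81%) a Rag2 UMI, 362 (4.12%) a Rag1 UMI and 206 (2.34%) a Ptcra UMI. In experiment 2 the shares were 26.1% for Dntt, 11.3% for Rag2, 7.85% for Rag1 and 4.37% for Ptcra. For the recombinase genes most positive cells had a single UMI, 83.0% of Rag2-positive and 74.9% of Rag1-positive cells in experiment 1. A single cell held up to 77 Dntt UMIs in experiment 1 and up to 62 in experiment 2.

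Ptcra counts rested on few cells. The 10 cells richest in Ptcra held 23.5% of its UMIs among 206 positive cells in experiment 1, and 17.0% among 364 in experiment 2, with up to 20 UMIs in 1 cell. The corresponding 10 cells held 10.4% and 7.23% of Rag1 UMIs, 3.79% and 3.83% of Rag2 UMIs and 6.63% and 3.3996% of Dntt UMIs, shares that also depend on how many cells were positive. As a reading of free RNA, the granulocyte or monocyte-like and mast or basophil-like clusters were used, 533 cells in experiment 1 and 1086 in experiment 2, with cluster medians of 22631.5 to 30801 and 19787.5 to 24441 UMIs per cell. At 5000 UMIs per cell, none of the 527 of those cells deep enough in experiment 1 had a Rag1 or Rag2 UMI, which allows a share of up to 0.569%, and 0.380% had a Dntt UMI. Of all cells, 1.20% had Rag1, 2.72% had Rag2 and 9.04% had Dntt at that depth. In experiment 2 the shares in those cells were 0% of 1038 for Rag1 (up to 0.289%), 0.193% for Rag2 and 1.25% for Dntt, against 2.69%, 3.52% and 15.6% of all cells. For Ptcra the share in those cells was 0.380% against 0.779% of all cells in experiment 1 and 0.385% against 1.82% in experiment 2. Ptcra in experiment 1 thus lay closest to the level of cells that should lack it.

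Rag1 in experiment 1 ran from 0.682 CPM in tag 2 to 7.21 CPM in tag 7, with a median of 2.12 CPM over the 8 tags. Tag 7 was alone at the top, tags 8 and 5 came next without differing from each other beyond counting error, and tags 1 and 2 were lowest. The ratio of highest to lowest tag was 10.6 (6.90 to 16.8). Without tag 7 it was 5.96.

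In experiment 2 Rag1 ran from 0.379 CPM in tag 1, where 13 UMIs were counted, to 14.7 CPM in tag 8, with a median of 2.08 CPM. The tags fell into a high set, with tag 8 at 14.7, tag 7 at 10.5 and tag 4 at 9.68 CPM, and the other 5 at or below 2.69 CPM. The step between these sets, from tag 4 to tag 6, was 3.59-fold (2.76 to 4.74). Highest to lowest was 38.8 (22.4 to 73.7), and 14.4 without tag 1.

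Rag2, the partner subunit, spanned far less. Experiment 1 gave 2.84 CPM in tag 2, a median of 5.45 CPM and 6.76 CPM in tag 7, a ratio of 2.38 (1.84 to 3.09). Of its 7 steps between neighbours in the order, 1 exceeded counting error, that from tag 6 at 4.36 CPM to tag 1 at 2.86 CPM. In experiment 2 Rag2 ran from 1.90 CPM in tag 1 to 13.8 CPM in tag 7 with a median of 3.28 CPM, a ratio of 7.29 (5.57 to 9.66). The same tags 7, 4 and 8 were high, with 12.7 CPM in tag 4 and 10.3 CPM in tag 8, and the others were at or below 3.82 CPM.

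Dntt in experiment 1 was 6.16 CPM in tag 4 and 6.60 CPM in tag 3, which did not differ beyond counting error, and 110.5 CPM in tag 7. The median was 18.6 CPM, and the second highest, tag 8, stood at 53.4 CPM. Highest to lowest was 17.9 (15.5 to 20.9), and 8.68 without tag 7. In experiment 2 Dntt ran from 14.0 CPM in tag 2 to 245.5 CPM in tag 7 with a median of 51.9 CPM, and all 7 neighbouring pairs in the order differed beyond counting error. Its ratio was 17.5 (15.8 to 19.4), and 8.99 without tag 7 or 10.6 without tag 2.

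Ptcra was low in every culture of experiment 1, from 0.628 CPM in tag 2 to 2.59 CPM in tag 3 with a median of 1.72 CPM, on 23 to 77 UMIs per tag. Its order there was hardly resolved, since 1 of 7 neighbouring pairs differed beyond counting error. The clusters that should lack Ptcra, at 0.592 and 2.25 CPM in experiment 1, covered most of that range. The ratio was 4.13 (2.56 to 6.90), and 2.41 without tag 2. In experiment 2 Ptcra stood at 13.3 CPM in tag 4, 5.31 CPM in tag 7 and 4.53 CPM in tag 8, and the other 5 tags lay between 1.01 and 2.06 CPM. The clusters that should lack Ptcra stood at 0.537 to 2.10 CPM in experiment 2, the upper value on 6 UMIs. These 5 tags lie within that range. The ratio of tag 4 to tag 3, the lowest, was 13.2 (9.58 to 18.5) and thus has a lowest level not set apart from such cells. Without tag 4 it was 5.27, and without tag 3 it was 8.25.

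**Figure D1:**
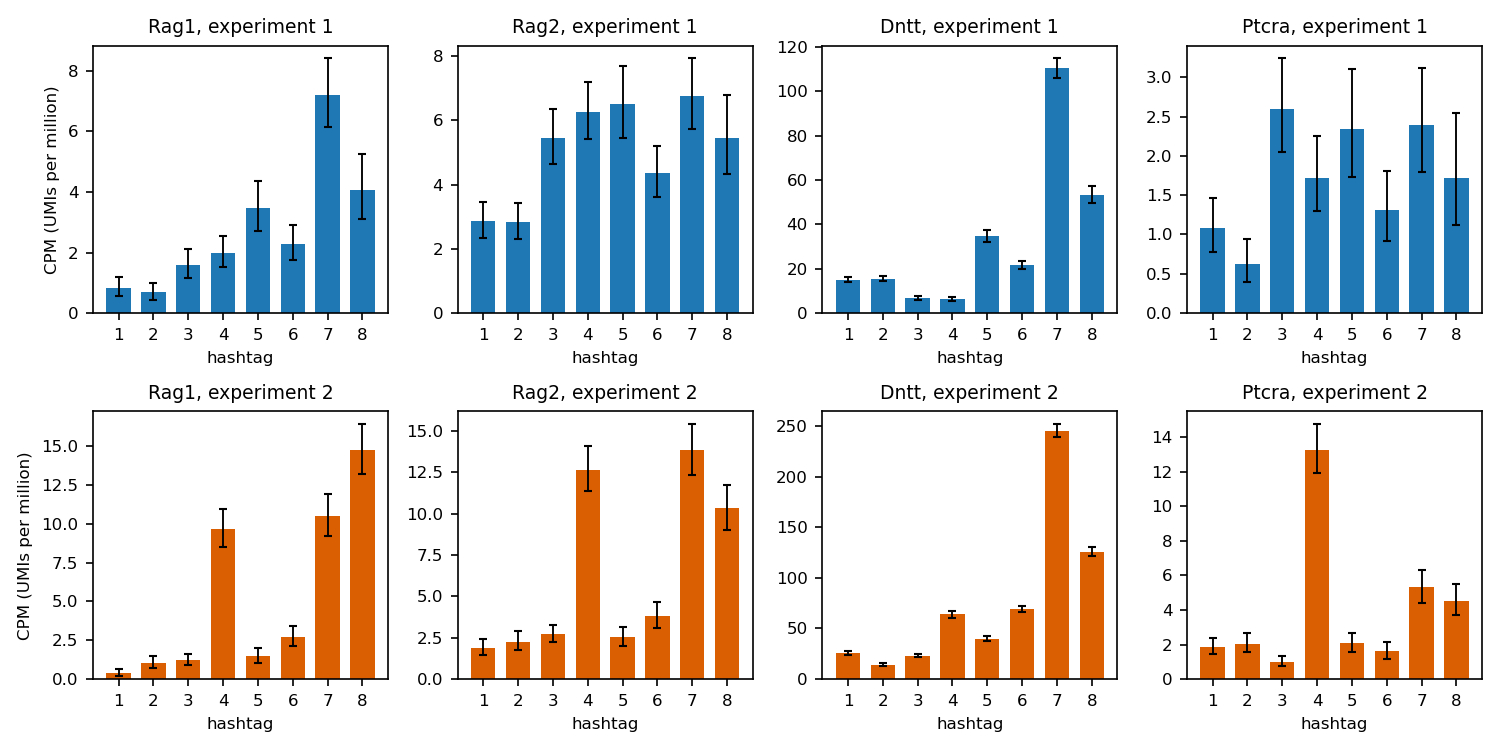
Level of each member in each hashtag, in CPM on a linear axis from 0, for experiment 1 (upper row) and experiment 2 (lower row); bars are single tags and error bars are exact 95% Poisson intervals. In experiment 2 tags 4, 7 and 8 stand above the other tags for Rag1, Rag2 and Ptcra, while Dntt is led by tag 7 at 245.5 CPM.

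In both experiments the highest tag exceeded the lowest by 2-fold or more for all 4 members. That fold was reached by 20.5% of the 11249 genes with a ratio in experiment 1 and by 28.1% of the 11605 in experiment 2, where a ratio required 10 UMIs in the lowest tag. Among genes with a mean of 1 to 10 CPM, the range of Rag1, Rag2 and Ptcra, the shares were 40.0% and 48.5%, so a 2-fold span alone is common at their depth. A tag's CPM also depends on its mix of cell types, and fewer positive cells and less RNA per cell are separated below only as far as the counts allow.

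The share of cells with a UMI was read at 5000 UMIs per cell. Dntt was found in 24.8% of thinned cells of tag 7 in experiment 1 against 2.25% in tag 3 and 2.53% in tag 4, and in 41.1% of tag 7 in experiment 2 against 4.34% in tag 2. Without thinning these shares were 39.8%, 7.37%, 6.51%, 52.6% and 9.76%. Ptcra was found in 6.33% of thinned cells of tag 4 in experiment 2 and in 0.310% of tag 3. For the recombinase genes the tag with the largest share was not always the one with the highest CPM. Rag2 was found in 4.07% (3.00 to 5.37) of tag 3 and 3.26% (2.32 to 4.45) of tag 7 in experiment 1, and in 8.29% (6.74 to 10.1) of tag 4 and 7.00% (5.50 to 8.76) of tag 7 in experiment 2. Rag1 in experiment 2 was found in 6.88% of tag 8, 6.24% of tag 4 and 5.50% of tag 7. The intervals of the tags set side by side for these genes overlap, and no order is read from them.

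The members did not share 1 order of tags. In experiment 1, tags 3 and 4 were the lowest for Dntt, but for Rag2 they were at 5.46 and 6.25 CPM, above or level with the median, and tag 3 led Ptcra. Dntt UMIs per Rag2 UMI were 1.21 (0.978 to 1.499) in tag 3 and 0.985 (0.803 to 1.21) in tag 4. The same ratio was 16.3 (13.9 to 19.4) in tag 7 and between 4.98 and 9.81 in the other 5 tags. In experiment 2 Dntt UMIs per Ptcra UMI ranged from 4.81 (4.28 to 5.42) in tag 4 to 46.2 (38.7 to 55.6) in tag 7.

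Across the 16 tags of both experiments, with each experiment's mean subtracted, the correlation of log2(CPM + 1) was 0.93 for Rag1 with Rag2, 0.86 for Rag2 with Ptcra and 0.80 for Rag1 with Dntt. It was 0.42 for Dntt with Ptcra. Within experiment 1 Dntt with Rag2 gave 0.30 and within experiment 2 it gave 0.85 over 8 tags each. Tags of 1 experiment share a library but differ in depth per cell, and these correlations are descriptions. Median UMIs per cell ran from 18057.5 in tag 7 to 29606 in tag 2 in experiment 1. In experiment 2 they ran from 19543 in tag 4, 21907 in tag 7 and 24902 in tag 8 up to 31961 in tag 1. The tags high in Rag1 were thus among the shallowest.

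The committing gene Bcl11b had a different relation to each member over the 16 tags, with 0.83 for Ptcra, 0.82 for Rag2, 0.67 for Rag1 and 0.21 for Dntt. For Runx1 the order was the reverse, with 0.86 for Dntt, 0.52 for Rag1, 0.24 for Rag2 and 0.00 for Ptcra. The experiments differed in some of these values. Bcl11b with Dntt gave -0.24 in experiment 1 and 0.50 in experiment 2, and with Rag1 0.38 and 0.77. With Rag2 it gave 0.81 and 0.84, and with Ptcra 0.82 and 0.85. Runx1 UMIs may come from the mouse gene or from a vector, which the counts cannot tell apart.

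Cells were next split by the stage genes, each thinned to 5000 UMIs, into those with no UMI of Il2ra or Bcl11b, those with Il2ra alone and those with both. In experiment 1 these gates held 51.1%, 41.6% and 5.58% of cells. In experiment 2 they held 63.0%, 24.9% and 7.13%. A gate of this kind misses cells whose transcript was not caught, so the first group is a mixture that also holds cells of other lineages.

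Rag1 differed by the largest factor between these gates. Its level in experiment 1 was 0.573 CPM in cells with neither gene, 3.42 CPM with Il2ra alone and 12.5 CPM (10.4 to 14.8) with both. In experiment 2 it was 1.04, 7.93 and 19.5 CPM (17.1 to 22.2). Cells with both genes were above cells with neither in 7 of 7 tags of experiment 1 and 6 of 6 of experiment 2 that had 20 cells in each gate, with median ratios of 22.4 and 18.3.

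Rag2 was already counted in the first gate. It stood at 2.53, 6.52 and 14.5 CPM in the 3 gates of experiment 1 and at 2.43, 9.38 and 18.1 CPM in experiment 2. The median ratio of both genes to neither was 5.31 over the 7 tags and 4.76 over the 6 tags. Cells with neither gene held 28.1% of Rag2 UMIs in experiment 1 and 28.4% in experiment 2, against 13.0% and 15.5% of Rag1 UMIs.

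Dntt behaved differently in the 2 experiments at the first step. In experiment 1 it was 23.1 CPM in cells with neither gene and 22.6 CPM with Il2ra alone, and Il2ra-only cells were higher in 4 of 7 tags. These pooled values join opposite changes. Il2ra-only cells were lower in tags 1, 2, 7 and 8, with intervals that did not overlap. In tag 7 Dntt went from 115.7 to 74.2 CPM and in tag 8 from 56.7 to 37.4 CPM. Il2ra-only cells were higher in tags 3 to 6, where the intervals overlapped. Pooled Dntt then stood at 122.9 CPM (116.2 to 129.9) with both genes, above Il2ra alone in 7 of 7 tags. In experiment 2 it was 29.6, 84.7 and 354.8 CPM (344.3 to 365.6), ordered the same way in 6 of 6 tags at both steps. Whether the first step differed between the experiments was not tested.

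Ptcra, the pre-T-cell receptor chain, stood at 0.983, 1.77 and 6.97 CPM in experiment 1 and at 1.58, 3.96 and 16.4 CPM in experiment 2. Cells with Bcl11b but no Il2ra UMI, 407 in experiment 2, had 20.2 CPM (17.2 to 23.6) of Ptcra, 20.1 CPM of Rag1, 19.3 CPM of Rag2 and 187.5 CPM of Dntt. Over the 3 tags with 20 such cells, Ptcra there ranged from no UMI through 4.29 CPM to 28.7 CPM, so the pooled value lies well above 2 of these tags. In experiment 1 the 143 such cells had 3.55 CPM (1.77 to 6.36) of Ptcra, 3.55 CPM of Rag1, 6.79 CPM of Rag2 and 22.0 CPM of Dntt. Between single tags, Ptcra in cells with both genes spanned 0.675 to 12.1 CPM in the first experiment and 1.75 to 37.6 CPM in the second.

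**Figure D2:**
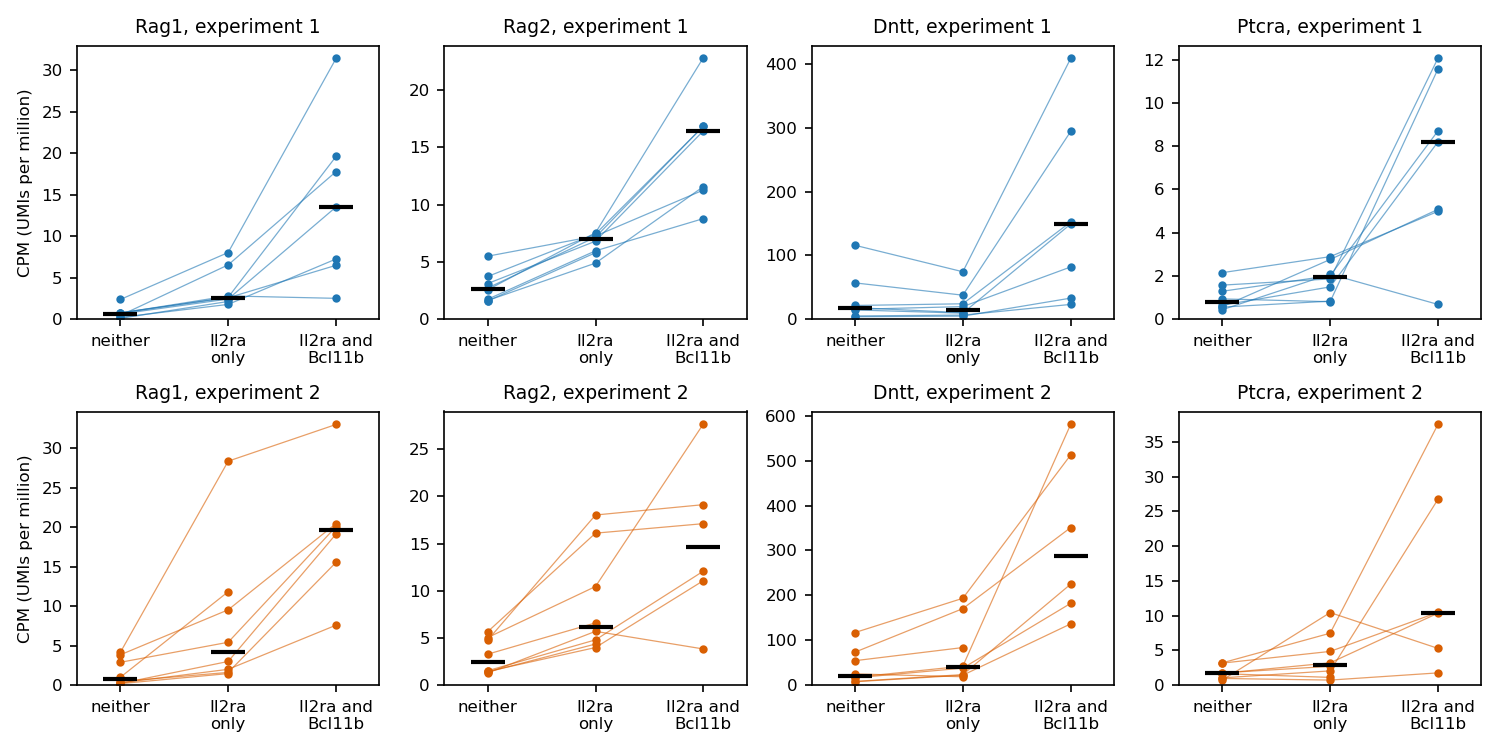
Level of each member (CPM, linear axis from 0) in cells with no UMI of Il2ra or Bcl11b, with Il2ra only, and with both, at 5000 UMIs per cell; each line joins the 3 gates of 1 tag, points are tags with at least 20 cells in the gate, and black marks are medians over tags. Rag1 and Rag2 are higher at each step in nearly all tags. From the first to the second gate, Dntt in experiment 1 is lower in tags 1, 2, 7 and 8 and higher in tags 3 to 6.

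Kit marks the earliest stages and is lost with commitment. In cells with a Kit UMI, Rag1 was 1.88 CPM in experiment 1 against 2.50 CPM in cells without, and Rag2 was 5.72 against 4.43 CPM. In experiment 2 Rag1 was 3.45 against 4.60 CPM and Rag2 was 4.97 against 5.72 CPM. Cells without a Kit UMI held 75.8% of Dntt UMIs in experiment 1 and 87.2% in experiment 2, near their 71.8% and 83.3% of cells. Among Il2ra-positive cells Rag1 was 3.04 CPM with Kit and 4.86 CPM without in experiment 1, and 6.19 and 10.6 CPM in experiment 2.

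Flt3 marks multipotent and lymphoid-primed progenitors. In the 134 Flt3-positive cells of experiment 1 Dntt was 27.7 CPM (22.8 to 33.4), close to the 27.5 CPM of the remaining cells. Rag2 was 4.58 CPM there, on 18 UMIs. In experiment 2 the 174 Flt3-positive cells had 66.0 CPM of Dntt (59.1 to 73.6) and 0.401 CPM of Ptcra, on 2 UMIs.

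The recombinase genes differed in how their counts were shared over the stages, which the ratio of Rag2 to Rag1 UMIs states in 1 value. The size of this ratio in any cell also reflects how well each transcript is captured at its 3′ end, so only its change between cell groups is described. In experiment 1 it was 4.42 (3.38 to 5.85) in cells with neither gene, 1.91 (1.66 to 2.19) with Il2ra alone and 1.17 (0.913 to 1.49) with both. In experiment 2 it was 2.32 (1.92 to 2.81), 1.18 (1.05 to 1.34) and 0.928 (0.769 to 1.12). It was higher in cells with neither gene than with Il2ra alone in 6 of 6 tags of experiment 1 and in 5 of 7 of experiment 2 that had at least 5 Rag1 UMIs in both gates. From Il2ra alone to both genes it was lower in 5 of 7 tags of experiment 1, with tags 3 (2.44 to 6.60) and 8 (1.16 to 1.29) the exceptions, and in 6 of 7 of experiment 2, where tag 6 went from 0.558 to 0.800. The pooled value of 1.91 also mixes tags, since Il2ra-only cells of experiment 1 stood at 2.44 to 2.90 in tags 1 to 6, 0.905 in tag 7 and 1.16 in tag 8.

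Whole tags differed in the same ratio. In experiment 1 it was between 3.16 and 4.16 in tags 1 to 4, 1.87 and 1.92 in tags 5 and 6, 1.34 in tag 8 and 0.938 (0.745 to 1.18) in tag 7. In experiment 2 it ran from 5.00 (2.73 to 9.89) in tag 1 to 0.701 (0.590 to 0.833) in tag 8. Tag 8 was also below 1 in Il2ra-only cells, with 140 Rag2 and 220 Rag1 UMIs, a ratio of 0.636 (0.511 to 0.790).

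**Figure D3:**
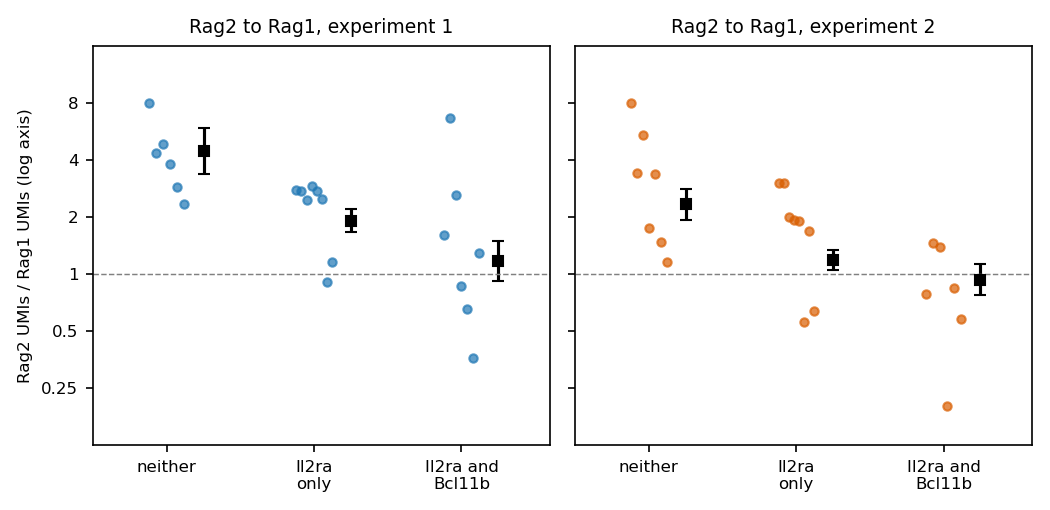
Rag2 UMIs per Rag1 UMI (log axis) in the 3 stage gates; points are single tags with at least 20 cells and 5 Rag1 UMIs in the gate, black squares are all tagged cells of the gate with exact 95% intervals, and the dashed line marks equal counts. The pooled ratio goes from 4.42 to 1.17 in experiment 1 and from 2.32 to 0.928 in experiment 2.

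Cells were clustered within each experiment without the 4 members, and clusters were named only where markers of 1 class led them. In experiment 1 the pooled levels of Rag1, Rag2 and Dntt were highest in cluster 6, at 8.43, 8.19 and 123.5 CPM. It was an unnamed group of 1002 cells led by Sh2d1a, Capg, Rgs1 and Ccl5. That cluster drew 693 of its cells from tag 7 and 283 from tag 8 and had a median of 15231 UMIs per cell. Cluster 4, T progenitor-like and led by Gm4632, Epcam and Rgcc, drew on all 8 tags. It had 58.2 CPM of Dntt, 6.45 CPM of Rag1, 7.94 CPM of Rag2 and, at 3.53 CPM (2.92 to 4.25), the most Ptcra. Single tags of cluster 4 reached 13.5 CPM of Rag1, 14.1 CPM of Rag2 and 150.1 CPM of Dntt. The highest values of a tag in cluster 6 were 8.86, 8.59 and 134.9 CPM, so its lead holds for pooled cells only.

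The T progenitor-like clusters 3 and 7, led by Pgam2 and Gsn and also by Cd3g, combined Rag2 with little Dntt. Rag2 was 7.14 and 5.32 CPM there, while Dntt was 2.77 and 4.41 CPM, below the 26.1 CPM of early progenitor-like cluster 2. Cluster 2 drew mostly on other tags, and Dntt there ran from 6.43 to 115.3 CPM over single tags, with a median of 16.7 CPM. Nearly all cells of clusters 3 and 7 came from tags 3 and 4. These were 386 and 426 of the 817 cells of cluster 3 and 429 and 438 of the 870 cells of cluster 7. Their levels are thus those of the same 2 tags again, and not a separate observation. The innate lymphoid-like cluster 8 had no Rag2 UMI in 181 cells, for an exact upper bound of 1.17 CPM.

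In experiment 2 cluster 7, 1340 cells led by Gm4632, Sh2d1a and Akr1c12, held 64.0% of all Dntt UMIs, 62.8% of Rag1, 41.7% of Rag2 and 29.5% of Ptcra. Its levels were 309.2 CPM of Dntt, 20.3 CPM of Rag1 and 16.9 CPM of Rag2, and 42.9% of its cells were from tag 7. Cluster 2, 1334 cells led by Pgam2, Gsn and Bcl11b, held 42.1% of Ptcra UMIs. It joined 655 cells of tag 2 and 667 of tag 4, which differed in all 4 members. Ptcra was 1.96 CPM (1.34 to 2.77) in its tag 2 cells and 26.3 CPM (23.5 to 29.3) in its tag 4 cells. Rag1 was 1.29 and 17.8 CPM, Rag2 was 2.39 and 21.8 CPM, and Dntt was 13.2 and 99.95 CPM. At a finer resolution the Ptcra-rich cells formed a committed T-like cluster of 591 cells, led by Pgam2 and Themis, with 34.7 CPM of Ptcra and 27.2 CPM of Rag2.

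Cluster 1 of experiment 2, 163 cells led by Gzmc, Cd8b1, Ifng and Trac, had no Rag2 UMI, for an exact upper bound of 0.803 CPM, and 4.13 CPM of Dntt. The B-lineage-like cluster 15 of experiment 2, 82 cells led by Vpreb3 and Cd79a, had 162.5 CPM of Dntt (144.6 to 182.1), the second highest Dntt level among the clusters of that experiment. On 9 UMIs each, Rag1 and Ptcra were 4.92 CPM there, and Rag2 was 2.74 CPM. It held 1.92% of Dntt UMIs.

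**Figure D4:**
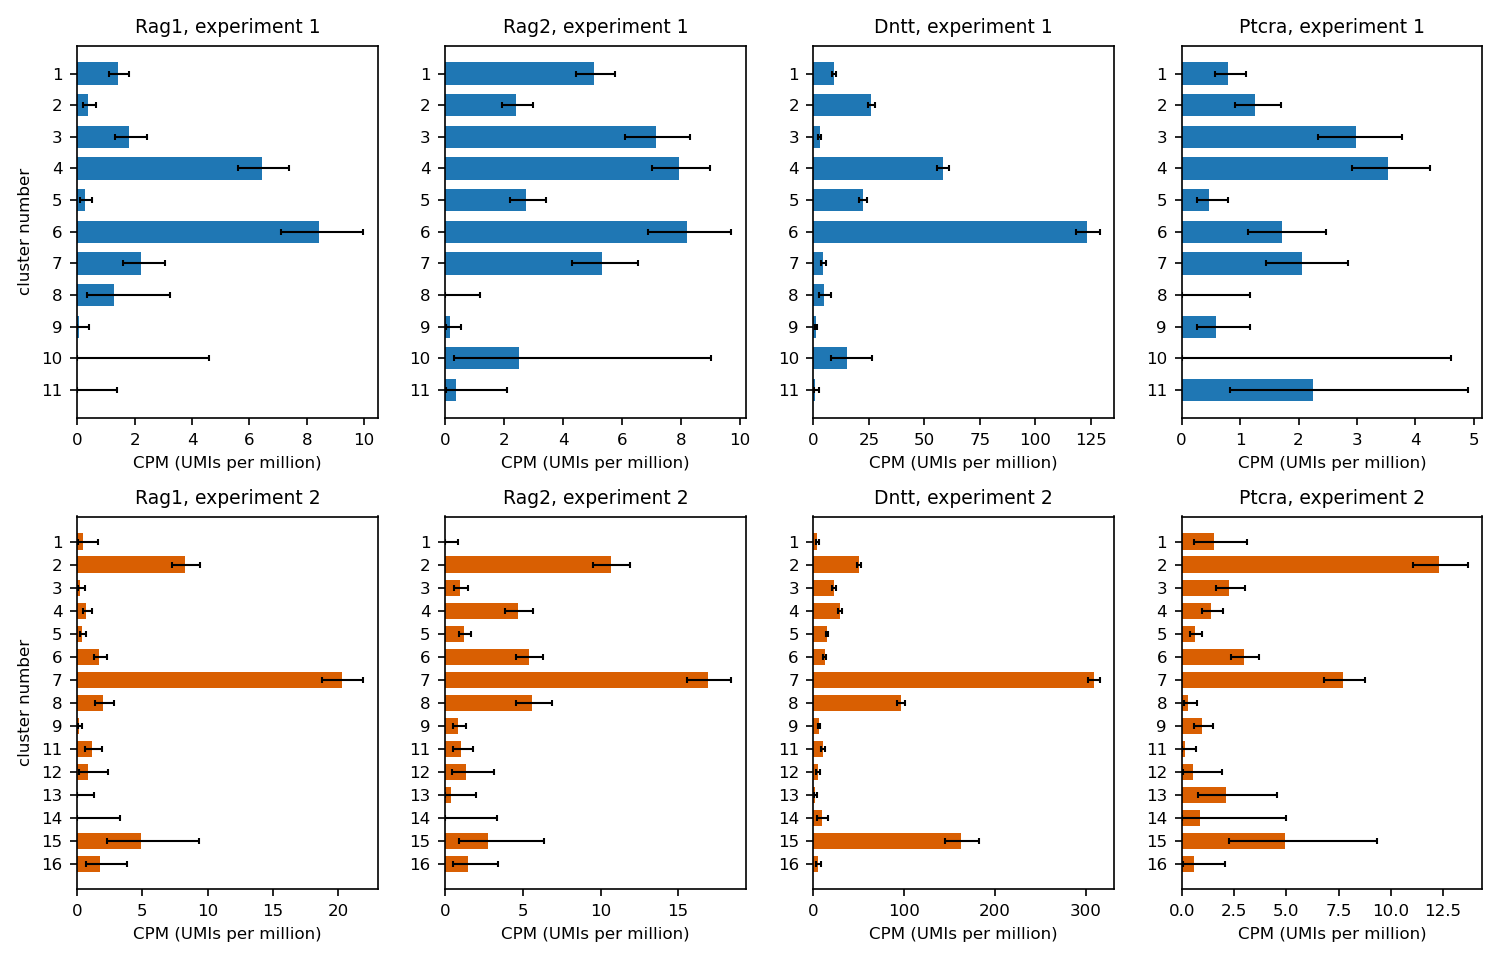
Level of each member (CPM, linear axis from 0) by cluster of cells with at least 50 cells, for experiment 1 (clusters 1 to 11) and experiment 2 (clusters 1 to 16 without cluster 10); error bars are exact 95% Poisson intervals. Dntt is led by cluster 6 in experiment 1 and by cluster 7 in experiment 2, while Ptcra is led by clusters 4 and 2.

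The summed level of B-lineage markers moved with some of these tags. The summed level of the 8 markers searched (Cd79a, Cd79b, Ebf1, Pax5, Vpreb1, Vpreb3, Igll1 and Blnk) was 30.1 to 38.5 CPM over the tags of experiment 1. In experiment 2 it was 47.1 to 95.03 CPM in tags 1 to 6 and 197.7 and 183.4 CPM in tags 7 and 8, the tags highest in Dntt. The share of cells with 3 or more UMIs of these markers, counted without thinning, did not follow that level. It was 7.37% in tag 7, the lowest of experiment 2, and 13.8% in tag 8. In tags 1 to 6 it lay between 11.2% in tag 4 and 20.7% in tag 1. A fixed count is reached more easily in deeper cells, and depth differed between tags. Median UMIs per cell were 31961 in tag 1, 21907 in tag 7 and 19543 in tag 4. Cells deep enough for thinning that held 3 or more of these UMIs had a median of 35598, against 26338 over all tagged cells. Whether the shares differ at equal depth was not tested, and omitting these cells also removes deeper cells. Without all cells holding 3 or more UMIs of these markers, the Dntt ratio of highest to lowest tag in experiment 2 was 18.1, and without all cells holding a Cd79a UMI it was 17.7, against 17.5 with them. The Rag1 ratio in experiment 2 was 43.4 and 39.0 without these cells, against 38.8. Cells with a Cd79a UMI held 2.82% of the Dntt UMIs of experiment 2.

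The members were found in the same cells more often than the product of their shares within tags gives. In experiment 1, 107 cells had UMIs of both Rag1 and Rag2 where the product gives 37.5, and in experiment 2, 265 cells where it gives 108.4. At 5000 UMIs per cell the ratio was 2.58 and 2.95. Dntt was present in 66.8% of the Rag1-positive and 53.1% of the Rag2-positive cells of experiment 2, and in 43.4% and 26.5% of those of experiment 1. Of Ptcra-positive cells in experiment 2, 54.9% had Dntt, 28.6% had Rag1 and 27.5% had Rag2. Cells of 1 tag are not replicates, and the tags mix cell types that differ in all 4 genes.

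Cycling was read from the summed level of 18 cycle genes, with cells of each tag divided at the median of that tag. Rag2 was lower in the less cycling cells, with 0.766 of the level in the more cycling cells (0.673 to 0.871) in experiment 1 and 0.716 (0.637 to 0.805) in experiment 2. That direction was seen in 7 of 8 and 6 of 8 tags. Dntt was higher, at 1.14 (1.08 to 1.20) and 1.13 (1.10 to 1.17), a direction seen in 6 of 8 and 5 of 8 tags. For Ptcra the ratio was 1.01 (0.809 to 1.25) in experiment 1 and 1.28 (1.12 to 1.47) in experiment 2, above 1 in 3 of 8 and 5 of 8 tags. For Rag1 it was 0.768 (0.638 to 0.922) and 0.967 (0.852 to 1.10), above 1 in 3 of 8 and 2 of 8 tags. The less cycling cells were also shallower, with medians of 20788 against 29200.5 UMIs in experiment 1 and 21583 against 31926 in experiment 2.

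Over all tagged cells, Dntt went from 27.5 CPM in the first experiment to 66.7 CPM in the second, which is 2.42-fold (2.35 to 2.50). Ptcra went from 1.62 to 3.61 CPM, a ratio of 2.23 (1.97 to 2.53), Rag1 from 2.35 to 4.46 CPM, 1.90 (1.71 to 2.11), and Rag2 from 4.78 to 5.62 CPM, 1.18 (1.08 to 1.28). Dntt and Ptcra were thus at least 2-fold higher, as were 8.89% of the 14693 genes compared. The difference for Rag1 and Ptcra lay in a few tags. The median over tags was 2.12 CPM in experiment 1 and 2.08 CPM in experiment 2 for Rag1, and 1.72 and 2.06 CPM for Ptcra, while 3 tags of experiment 2 were above the highest of experiment 1 for each. For Rag2 the median was lower in experiment 2, 3.28 against 5.45 CPM, and the ratio over all cells was 0.989 without tag 4 of experiment 2 and 0.983 without its tag 7. The Ptcra ratio was 1.48 without tag 4 of experiment 2. The Dntt ratio was 3.65 without tag 7 of experiment 1, and 1.69 without tag 7 of experiment 2. With 1 library per experiment, culture time, library and the mix of conditions cannot be told apart.

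Genes of the same pathway were read from 3 lists of 46 genes. The first held 13 genes that assist the cut or join the ends. In experiment 1, 4 of 13 had a ratio of at least 2 with a median of 1.40, beside 20.5% and a median of 1.38 over all genes with a ratio. In experiment 2 it was 5 of 13 with a median of 1.64, beside 28.1% and 1.49. In experiment 1 the widest were Polm (21.9), Xrcc5 (2.43), Lig4 (2.22), Xrcc6 (2.03) and Dclre1c (1.93), as ratios of highest to lowest tag. In experiment 2 the ratios were 20.5 for Polm, 5.06 for Lig4, 3.65 for Xrcc5, 3.21 for Xrcc6 and 2.49 for Dclre1c. Xrcc5 and Xrcc6 encode the Ku pair that holds broken ends, Lig4 the ligase and Dclre1c the hairpin opener Artemis.

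Polm encodes DNA polymerase mu, the closest relative of TdT, which fills gaps at joined ends. In experiment 1 Polm was 20.5 CPM in tag 3 and 21.8 CPM in tag 4 and between 0.998 and 3.42 CPM in the other 6 tags. Tags 3 and 4 were the lowest for Dntt. In experiment 2 Polm was 16.7 CPM in tag 2 and 18.5 CPM in tag 4, and between 0.904 and 2.51 CPM in the others. Tag 2 there was the lowest for Dntt at 14.0 CPM, but tag 4 was mid-range at 63.9 CPM. The correlation of the levels was -0.58 in experiment 1 and -0.26 in experiment 2 over 8 tags each.

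By cluster, which for the Polm-rich cells restates these tags, Polm in experiment 1 was 31.9 and 24.2 CPM in the Pgam2-led clusters 3 and 7, where Dntt was 2.77 and 4.41 CPM, and 3.79 CPM in cluster 6, where Dntt was 123.5 CPM. In experiment 2 Polm was 2.71 CPM in the Dntt-rich cluster 7 and 29.8 CPM in cluster 2, where Dntt was 50.0 CPM. The tag 4 cells of that cluster were high in both, with 34.6 CPM of Polm and 99.95 CPM of Dntt, and its tag 2 cells had 25.9 CPM of Polm and 13.2 CPM of Dntt. A Polm UMI was found in 6.92% of Dntt-positive cells against 12.9% of all cells in experiment 1, and in 6.57% against 10.9% in experiment 2. Within tags, cells with both numbered 109 where the product of shares gives 125.9 in experiment 1, and 143 where it gives 185.5 in experiment 2. Dntt-positive cells had medians of 21346 and 23245 UMIs against 24753 and 26338 for all cells.

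**Figure D5:**
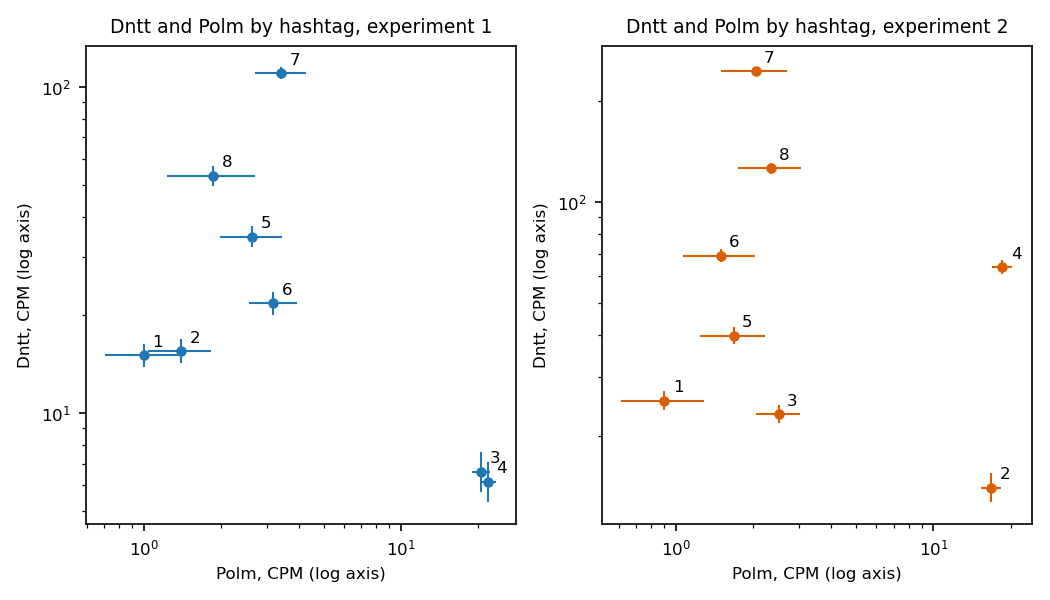
Dntt against Polm level by hashtag, both in CPM on log axes, with exact 95% Poisson intervals and the tag number beside each point. In experiment 1 tags 3 and 4 are highest in Polm and lowest in Dntt; in experiment 2 tags 2 and 4 are highest in Polm, with Dntt at 14.0 and 63.9 CPM.

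The second list held 11 partners and first signalling proteins of the pre-T-cell receptor. In experiment 1, 7 of the 10 with a ratio reached 2, with a median of 2.95, and in experiment 2, 8 of 11 with a median of 7.02. Over all genes the shares were 20.5% and 28.1% and the medians 1.38 and 1.49. The CD3 chains led both times. Their ratios in experiment 1 were 14.5 for Cd3d, 14.4 for Cd3g and 8.52 for Cd3e, ahead of Cd247 (5.04) and the kinase gene Lck (3.46). In experiment 2 they were 65.7 for Cd3d, 35.5 for Cd3g and 23.5 for Cd3e, ahead of the kinase gene Zap70 (19.7) and Cd247 (13.9). The highest tag of Cd3d, Cd3e and Cd3g in experiment 2 was tag 4, as for Ptcra.

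The third list held 22 regulators, of which 11 reached 2 in experiment 1 with a median of 1.98, and 14 in experiment 2 with a median of 2.68, beside the same 20.5% and 28.1% and medians of 1.38 and 1.49 over all genes. In experiment 1 Id3, an inhibitor of E proteins, had a ratio of 11.9, with 70.4 CPM in tag 7 and 5.93 CPM in tag 3. Bcl11b followed at 10.5, Runx1 at 6.30, Notch3 at 4.66 and Il7r at 4.54. In experiment 2 Bcl11b had a ratio of 62.9, from 2.04 CPM in tag 1 to 128.5 CPM in tag 4, followed by Il7r (9.28), Tcf7 (7.32), Gata3 (4.10) and Spi1 (3.60). Spi1, a myeloid and progenitor factor, was highest in tag 2 at 282.0 CPM and lowest in tag 7 at 78.2 CPM, the reverse of Il7r.

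Last, the genes most like each member over the 16 tags were sought among 4965 genes of at least 20 CPM. Klf3, a zinc-finger transcription factor, followed Dntt at 0.99 over all tags and at 0.99 and 0.996 over the 8 tags of experiments 1 and 2 alone, the highest likeness of any gene to a member. Klf3 ranged less, from 14.4 CPM in tag 3 to 35.5 CPM in tag 7 in experiment 1 and from 13.6 CPM in tag 2 to 36.8 CPM in tag 7 in experiment 2. After it for Dntt came Jund, Socs2, Arhgap15 and Mdh1, each at 0.94. For Rag1 they were Grk2 (0.97) and Senp2, Zfand6, Rras2 and Trdc (0.94 each). For Rag2 they were 4930523C07Rik, Nck1 and Grk2 (0.94 each) with Thy1 and Sept7 (0.93 each). Ptcra had Sept7 (0.93), Ppwd1 (0.91), Acyp1 (0.89), Cnot6l (0.88) and Stard3nl (0.88). Within experiment 1 alone these were 0.88, 0.88, 0.81, 0.72 and 0.67. A high likeness did not require a wide range. In experiment 1 Sept7 ran from 220.5 to 252.4 CPM and Ppwd1 from 29.5 to 33.7 CPM, while Socs2 ran from 13.4 to 107.3 CPM. Trdc, the constant gene of the T-cell receptor delta chain, spanned 17.3 to 71.4 CPM in the first experiment and 16.3 to 185.4 CPM in the second, highest in tag 7 both times. Each list is the top of 4965 values over 16 points that share 2 libraries.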

How the data were processed

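Each experiment had 1 mRNA library and 1 hashtag library, 4 in all. The authors deposited raw counts of UMIs per gene and cell, and raw counts per hashtag and cell, without normalization. Per the submitters' processing notes, Cell Ranger 3.0.0 was used with mm10 (GRCm38). Libraries were made with 10x Chromium v3, per the labels' protocols. The filter that chose the deposited barcodes is not given in the sources used here.

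The cell filter asked for 500 or more genes and less than 10% mitochondrial UMIs (9332 of 9967 barcodes passed in experiment 1 and 10214 of 10556 in experiment 2). A cell took the tag with the most counts where that tag had at least 50 counts and at least 3 times the second, which gave a tag to 94.3% and 81.6% of kept cells. Barcodes without a clear tag, doublets of 2 tags among them, were left out. Scrublet's own threshold marked almost no cells, so its top 5% of scores served only as an alternative. UMIs were summed per tag, and intervals are exact Poisson, exact conditional binomial (ratios) or Clopper-Pearson (shares) at 95%, computed with scipy 1.17.1. Thinning to 5000 UMIs left out 195 and 185 shallower cells. Clusters came from scanpy 1.11.5 (2000 variable genes without the members, 30 components, 15 neighbours, Leiden resolution 0.5). A cluster was named where its 50 leading genes (50 CPM or more) held 3 or more markers of 1 class, a scoring set after the data were seen. No name was given where another class tied, or had more markers among the 10 first of these genes. A cluster below 1/3 of the depth of its tags also needed a marker of its class among those 10. Ratios were tested on simulated data.

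Genes named are the 4 members, the 5 most like each member among genes of at least 20 CPM, and the 5 widest genes of each list and experiment. Others named, such as the genes that lead clusters or split stages, serve to define groups of cells. The members and lists were chosen with earlier results of these data known. Alternatives used edgeR 4.0.16 (TMM and RLE scaling), HTODemux of Seurat 5.3.0, other cell and tag filters, and omission of single tags. A B-lineage marker first listed with the others was left out of every sum and gate and is not reported here.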

Additional observations from a re-analysis of the deposited data

Results flagged for a closer look

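Of 8 sets of tag levels (4 members in 2 experiments), 2 had a tag set apart from the rest by more than Dixon's 95% limit for 8 values. For normally distributed values chance passes this limit in about 1 of 20 sets. The limit was applied to CPM without a log scale, and whether these levels are so distributed was not tested. The rate may therefore not hold here. Dntt in tag 7 of experiment 1 stood at 110.5 CPM (110.478 before rounding), with the next tag at 53.4 CPM. Ptcra in tag 4 of experiment 2 stood at 13.3 CPM (13.2741 before rounding), with the next tag at 5.31 CPM. Tag 4 of experiment 2 was also the highest for Bcl11b, Cd3d, Cd3e and Cd3g.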

How the results depend on the processing

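Of 194 values recomputed under alternatives other than the omission of a tag, 145 stayed inside the main counting interval, or for counts within 1.5 times, and 49 did not. Only the ratios of experiment 2 to experiment 1, with 12 alternatives for each member, could change direction, and none of them did. A ratio of highest to lowest tag cannot fall below 1, and list counts and cluster levels have no direction. The cause of each move was not tested unless the setting itself gives it. For the ratio of highest to lowest tag, thinning to 5000 UMIs gave 3.41 for Rag2 in experiment 1 and 21.3 (21.25) for Rag1, 14.7 for Dntt and 31.9 for Ptcra in experiment 2. Means over cells gave 14.3 for Dntt and 21.2 for Ptcra in experiment 2. Without the 5 richest barcodes of each tag, Dntt gave 25.9 in experiment 1 and 22.7 in experiment 2, and Ptcra 20.3 in experiment 2. Dntt in experiment 2 was 21.7 with the stricter tag call, 22.4 with HTODemux and 20.5 without the top 5% of Scrublet scores. At 3-fold, 13 list genes passed in experiment 1, against 22 at 2-fold.

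For experiment 2 against experiment 1, thinning gave 2.29 for Rag1, 1.38 for Rag2, 2.53 for Dntt and 2.67 for Ptcra. Means over cells gave 1.40 for Rag2, 2.54 for Dntt and 2.87 for Ptcra, and omission of the 5 richest barcodes 2.17 for Rag1, 2.58 for Dntt and 2.74 for Ptcra. RLE scaling gave 1.31 for Rag2 and 2.69 for Dntt, and omission of cells with B-lineage markers 1.28 for Rag2 and 2.65 for Dntt. Dntt was 2.63 with TMM scaling, 2.62 with the stricter cell filter and 2.33 with the stricter tag call.

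The level in the highest cluster depended on the clustering, and so did which cluster was highest. In experiment 2 Rag2 was highest in a cluster with Themis among its leading genes under each alternative, not in cluster 7. Rag1 was too, except at Leiden resolution 1.0, where its highest cluster was led by Sh2d1a. In experiment 1 Rag1 and Rag2 were highest in a T progenitor-like cluster without the top 5% of Scrublet scores. At Leiden resolution 1.0 it was 14.0 CPM for Rag1, 10.8 for Rag2, 159.9 for Dntt and 4.30 for Ptcra in experiment 1, and 28.0, 27.2, 563.6 and 34.7 CPM in experiment 2. With 3000 variable genes it was 11.9 CPM for Rag1 and 129.7 for Dntt in experiment 1, and 36.6, 33.3, 274.1 and 52.4 CPM for Rag1, Rag2, Dntt and Ptcra in experiment 2. Without the top 5% of Scrublet scores it was 116.1 CPM (116.05) for Dntt in experiment 1, and 26.4, 29.3, 293.9 and 40.1 CPM in experiment 2, where the Dntt value came from a B-lineage-like cluster of 60 cells.

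Leaving out each tag in turn gave highest-to-lowest ratios of 5.96 to 10.6 for Rag1, 2.29 to 2.38 for Rag2, 8.68 to 17.9 for Dntt and 2.41 to 4.13 for Ptcra in experiment 1. In experiment 2 they were 14.4 to 38.8, 6.11 to 7.29, 8.99 to 17.5 and 5.27 to 13.2. The ratio of the experiments was 1.43 to 2.46 for Rag1, 0.983 to 1.31 for Rag2, 1.69 to 3.65 for Dntt and 1.48 to 2.59 for Ptcra. Rag2 fell below 1 without tag 4 (0.989) or tag 7 (0.983) of experiment 2. List genes at 2-fold numbered 20 to 23 and 26 to 27.

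No paired analysis was possible because no hashtag is tied to a condition and no comparison between groups was tested. The omission of cells with any Cd79a UMI was chosen after seeing the data. Rag1 and Ptcra rest on as few as 13 and 23 UMIs in a tag, so small differences between tags were not detectable at this depth.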

Other observations

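Barcodes that passed the cell filter but took no tag were in no comparison. In experiment 1 the 535 such barcodes had 24.3 CPM of Dntt (22.4 to 26.4), 4.92 CPM of Rag2, 2.31 CPM of Rag1 and 1.62 CPM of Ptcra, against 27.5, 4.78, 2.35 and 1.62 CPM in tagged cells. In experiment 2 the 1879 such barcodes had 58.4 CPM of Dntt (56.5 to 60.3), 4.49 CPM of Rag2, 4.15 CPM of Rag1 and 2.76 CPM of Ptcra. For Dntt, Rag2 and Ptcra these lay below the 66.7, 5.62 and 3.61 CPM of tagged cells.

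In experiment 1 a few cells made up much of the Dntt count where Dntt was scarce. The 5 richest cells held 30.1% of Dntt UMIs in tag 3 and 36.3% in tag 4, against 7.99% in tag 7. For Ptcra the 5 richest cells of tag 8 in experiment 1 held 68.0% of 25 UMIs, and those of tag 1 in experiment 2 held 70.3% of 64 UMIs, while in tag 4 of experiment 2 they held 14.99% of 347 UMIs.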
